A study of Mus musculus with 24 samples.

Results

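Loss of the myocardin-related transcription factors was examined in mouse heart muscle cells that had also been exposed to guide RNA against myocardin. The comparison set 6 libraries of the group named TKO against 6 libraries of the group named MKO, 12 of the 24 libraries in all, and was read over 12281 tested genes. TKO mice were Rosa-Cas9/Cas9, carried Mrfta-/- (spelled so in the labels, Mrtfa) with Mrtfb-F/F, and received AAV-Myocd-sgRNA, an adeno-associated virus with guide RNA against Myocd. MKO mice carried Rosa-Cas9/Cas9, with both Mrtf genes intact, and received the same virus. Both groups therefore shared the Cas9 nuclease and the Myocd guide, and differed in the Mrtf genotype. A second pair served for a test of difference: DKO mice, with the mutant genotype of TKO and a Cre virus (AAV-Cre), and Ctrl mice, with Rosa-Cas9/Cas9 and the same Cre virus. Virus was given on postnatal day 1, and cardiomyocytes were isolated from 4-week-old hearts and purified by fluorescence-activated sorting. The Mrtfa deletion was carried by the whole animal, so any cell that was not a cardiomyocyte lacked it too in TKO and DKO libraries. The label of the Myocd guide virus names no Cre, which floxed Mrtfb would need. Whether each library stands for an animal of its own is not stated in the labels, and p-values here measure the spread between libraries, which may be technical.

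Mrtfa, Mrtfb and myocardin (Myocd) are transcriptional coactivators without DNA-binding specificity of their own. They bind serum response factor (Srf), which sits on CArG boxes near the start sites of genes for actin, myosin light chains and actin-binding proteins. Monomeric actin holds Mrtfa and Mrtfb in the cytoplasm, and its assembly into filaments releases them to the nucleus, whereas myocardin is nuclear and confined mainly to cardiac and smooth muscle. Factors of the ETS family compete with these coactivators for Srf.

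A list of cytoskeletal genes known as MRTF-SRF targets held 20 called genes, 18 of them with a promoter sequence, and 6 of the 18 had a CArG box there. The sequences of 4 that were lower in TKO, Myl9, Cnn2, Srf and Actg1, and of Fhl1, which was higher, are shown because they carry the larger changes among the 6, in opposite directions. Each is the stretch of 250 bases before a start site from RefSeq on GRCm38.p6, with the CArG box in capitals. RefSeq gives 2 start sites for Fhl1, and the one shown was picked because it holds the box. It lies inside the gene as counted, which begins at position 56731787. Myl9 lies at chr2:156775214-156775463 on the plus strand, Cnn2 at chr10:79988350-79988599 on the plus strand, Srf at chr17:46556163-46556412 on the minus strand, Actg1 at chr11:120348496-120348745 on the minus strand and Fhl1 at chrX:56779433-56779682 on the plus strand.
Myl9: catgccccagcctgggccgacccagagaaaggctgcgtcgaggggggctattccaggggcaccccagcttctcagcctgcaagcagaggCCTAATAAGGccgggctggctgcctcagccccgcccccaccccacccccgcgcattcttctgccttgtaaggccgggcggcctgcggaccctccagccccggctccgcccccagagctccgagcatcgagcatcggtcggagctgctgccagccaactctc
Cnn2: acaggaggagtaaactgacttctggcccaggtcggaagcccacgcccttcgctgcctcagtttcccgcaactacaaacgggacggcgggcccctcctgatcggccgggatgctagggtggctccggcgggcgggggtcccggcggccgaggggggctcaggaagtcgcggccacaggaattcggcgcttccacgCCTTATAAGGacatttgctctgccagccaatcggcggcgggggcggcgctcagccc
Srf: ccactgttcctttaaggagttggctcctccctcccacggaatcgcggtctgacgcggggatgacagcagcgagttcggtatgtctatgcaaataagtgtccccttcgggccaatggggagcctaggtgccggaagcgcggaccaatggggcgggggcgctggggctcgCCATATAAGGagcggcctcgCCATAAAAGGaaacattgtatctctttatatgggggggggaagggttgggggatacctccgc
Actg1: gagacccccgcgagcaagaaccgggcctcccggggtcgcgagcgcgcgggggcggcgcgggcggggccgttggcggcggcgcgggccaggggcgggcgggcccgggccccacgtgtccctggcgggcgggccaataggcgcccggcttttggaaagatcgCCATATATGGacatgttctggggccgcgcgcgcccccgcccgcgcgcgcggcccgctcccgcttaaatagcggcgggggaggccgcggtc
Fhl1: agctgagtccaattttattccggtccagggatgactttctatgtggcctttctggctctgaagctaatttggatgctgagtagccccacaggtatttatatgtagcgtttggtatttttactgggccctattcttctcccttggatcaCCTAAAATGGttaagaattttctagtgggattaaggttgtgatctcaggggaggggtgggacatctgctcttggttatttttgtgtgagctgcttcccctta
The CArG box began 161 bases before the start site in Myl9, 56 in Cnn2, 90 in Actg1 and 102 in Fhl1, and Srf held 2 boxes, the farther beginning at 82 bases. The CArG box was searched by its usual definition, which reads the same on both strands, in windows from 250 bases before to 50 bases after each start site of a gene, and a match in any of them counted. It was present in 1.56% of the 9788 tested genes with such a window, in 3.13% of 639 genes called lower and in 1.01% of 597 genes called higher. Of 40 MRTF-SRF targets with a window 25% held it, and the list had been chosen as targets of Srf, so this share is a description. The core of ETS sites, CCGGAA on either strand, which cannot overlap a CArG box, was present in 31.6% of all windows, in 25.3% of genes called higher and in 17.7% of genes called lower. Among the 273 genes with a window that stayed lower with the other-cell marker score described further on, 5.13% held a CArG box and 24.2% an ETS core. A match is a description of the letters and says nothing about binding.

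Total counts were 10.2 to 17.18 M in TKO libraries and 9.73 to 13.2 M in MKO libraries, and 5.83 to 12.16 M in DKO and 8.02 to 11.5 M in Ctrl libraries. The 10 most abundant genes took 14.4 to 16.8% of the counts in TKO and 17.6 to 19.2% in MKO, with no overlap. By sex-linked transcripts 3 of 6 TKO, 4 of 6 MKO, 1 of 6 DKO and 4 of 6 Ctrl libraries were male. Cardiomyocyte markers were abundant in every library: Myh6, the main myosin heavy chain of the adult mouse heart, stood between 44367 and 64173 CPM in TKO and between 55622 and 71302 CPM in MKO (CPM, counts per M of the TMM-scaled library total, M being mega). DKO 1, the shallowest library, and Ctrl 3, with the lowest level of other-cell markers, stand apart within their groups. They enter no mean given for TKO or MKO, but share in the estimate of the spread. Without them 2892 genes were called, 1487 higher and 1405 lower in TKO, against 796 and 843 with all 24 libraries. Counts of list members given without them stand beside these larger numbers.

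The targeted genes were read first. The Mrtfa gene carries the older symbol Mkl1 in the files (chromosome 15, 81012281 to 81190757, minus strand), and stood at 2.36, 2.44, 2.35, 2.66, 1.57 and 1.33 CPM in TKO 1 to 6, against 6.39, 10.4, 10.2, 8.88, 11.9 and 11.2 CPM in MKO 1 to 6. Every TKO library lay below every MKO library, and the log2 ratio of TKO to MKO was -2.21 ± 0.21 (standard error, edgeR quasi-likelihood test, adjusted p = 1.2e-07). The Mrtfb gene appears there as Mkl2 (chromosome 16, 13256481 to 13417529, plus strand), and stood at 38.3, 42.5, 36.4, 27.5, 39.4 and 28.9 CPM in TKO, against 49.9, 48.6, 59.2, 53.1, 52.8 and 44.1 CPM in MKO. The groups did not overlap, and Mkl2 fell by 0.53 ± 0.11 on the log2 scale (adjusted p = 0.00163), while its log2 ratio of DKO to Ctrl was -0.57. Exons that Cre leaves in place are counted too, and the fall of Mkl2 cannot be read as a share of cells without it. Myocd stood at 323, 213, 234, 296, 226 and 175 CPM in TKO, against 137, 187, 125, 120, 149 and 144 CPM in MKO. TKO 6 lay within the range of MKO and the other 5 TKO libraries above it, and Myocd was higher by 0.77 ± 0.13 (adjusted p = 0.000374). Editing of Myocd is not checked by these values, since a transcript with a small insertion or deletion is still counted.

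Over all genes 1639 of 12281 were called at an adjusted p under 0.05, which is 13.3%. Of these 796 were higher in TKO (6.48% of those tested) and 843 lower (6.86%). At least 2-fold differences numbered 203 higher and 391 lower, and in 955 of the called genes the libraries of TKO and MKO did not overlap. Calling favours separated groups, and the share without overlap over all tested genes was not counted. The median log2 ratio over all tested genes was -0.00079. The authors' deposited table for this pair of groups lists 3021 genes with an adjusted p under 0.05, 1442 higher in TKO and 1579 lower. Of the 1639 genes called here 1633 pass in the authors' deposited table with the same sign.

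Genes of the actin cytoskeleton were among the deepest falls. Of 44 tested MRTF-SRF cytoskeletal targets 15 were lower and 5 higher, shares of 34.1% and 11.4% beside 6.86% and 6.48% over all genes, with a median log2 ratio of -0.34. Without Ctrl 3 and DKO 1 20 were lower and 8 higher. Myl9, a regulatory light chain of nonmuscle and smooth muscle myosin, stood at 16.2, 20.3, 11.3, 9.22, 6.88 and 10.5 CPM in TKO, against 134, 101, 117, 94.5, 96.8 and 121 CPM in MKO. Its lowest MKO library was more than 4 times its highest TKO library, and the log2 ratio was -3.16 ± 0.34 (adjusted p = 8.52e-07). Smooth muscle actin, Acta2, which young cardiomyocytes also express, stood at 100, 183, 136, 37.2, 109 and 122 CPM in TKO, against 623, 597, 757, 424, 411 and 433 CPM in MKO. The groups were far apart for Acta2, with TKO 4 lowest, and it fell by 2.24 ± 0.27 (adjusted p = 2.65e-06). The cytoplasmic actin Actg1 stood at 14.3, 22.4, 14.1, 11.4, 13.8 and 7.34 CPM in TKO, against 93.2, 73.9, 49.2, 35.2, 25.5 and 43.8 CPM in MKO. MKO libraries of Actg1 differed widely among themselves, the lowest being close to the highest TKO library, and the fall was 1.95 ± 0.31 (adjusted p = 0.000129). Calponin 2, Cnn2, which binds actin filaments, averaged 8.78 ± 1.62 CPM in TKO and 33.8 ± 9.24 CPM in MKO (SD, n = 6 each) and fell by 1.95 ± 0.24 (adjusted p = 3.49e-06). The sources used here do not say how reads that match several actin genes were counted, so levels of single actins are uncertain.

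Srf itself fell. It stood at 38.8, 44.1, 50.9, 41.5, 43.2 and 38.3 CPM in TKO, against 81.1, 83.1, 114, 72.8, 91.5 and 83.8 CPM in MKO. All TKO libraries lay below all MKO libraries, and the log2 ratio was -1.03 ± 0.14 (adjusted p = 2.68e-05). Further falls of the list were those of the cytoplasmic actin Actb (-1.47 ± 0.30), of Pdlim7, a protein of actin-anchored Z-discs (-1.38 ± 0.18), of the actin-severing factor Dstn (-0.70 ± 0.11) and of Wdr1, which helps cofilin take filaments apart (-0.58 ± 0.10), with adjusted p between 7.57e-06 and 0.00163. Members also went the other way. Fhl1, a LIM protein that binds titin, stood at 321, 237, 239, 344, 184 and 262 CPM in TKO, against 88.4, 93.0, 128, 102, 125 and 111 CPM in MKO. No library of Fhl1 overlapped, and it rose by 1.29 ± 0.15 (adjusted p = 1.53e-06). Ankrd1, a stress-responsive muscle ankyrin repeat protein, rose by 1.76 ± 0.25, the focal adhesion protein Zyx by 0.70 ± 0.15 and the fibronectin receptor subunit Itga5 by 0.61 ± 0.10 (adjusted p from 2.74e-05 to 0.00303).

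**Figure D1:**
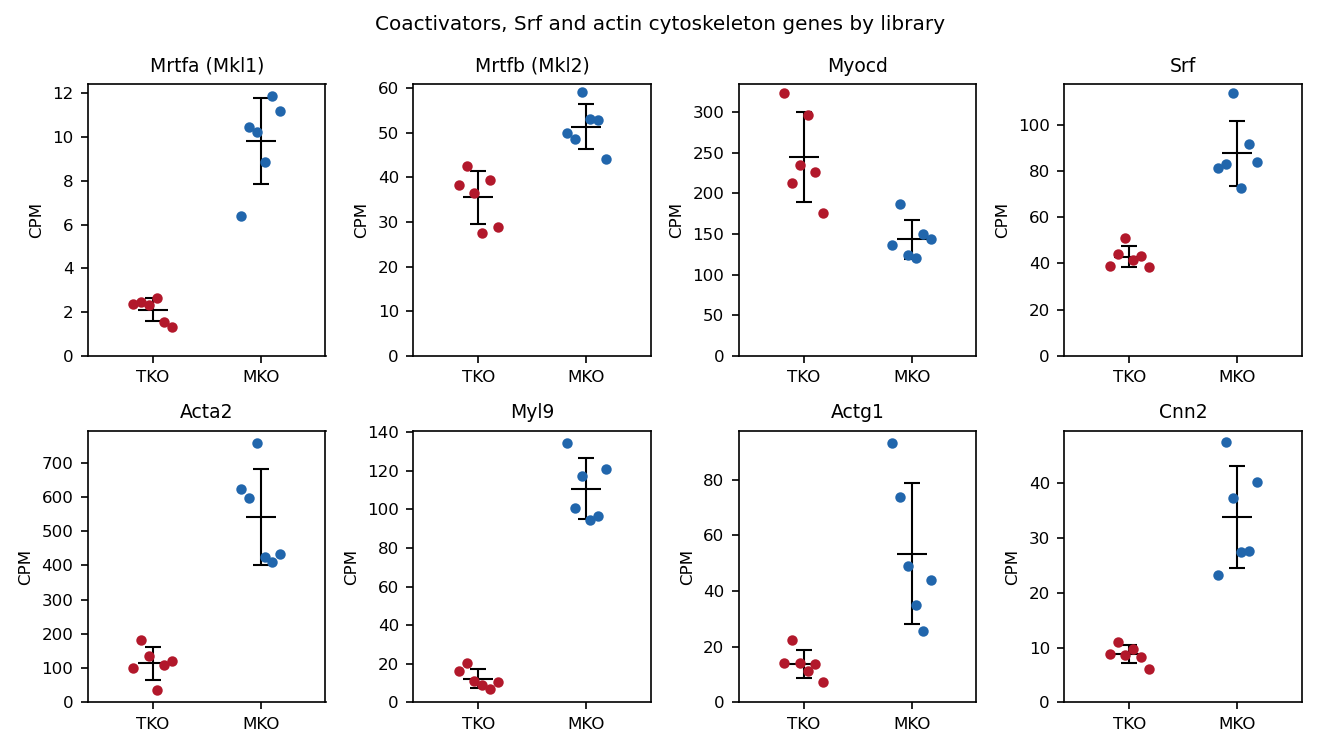
Level in CPM (vertical axes, each starting at 0) of the 3 coactivators, Srf and 4 actin cytoskeleton genes in the 6 TKO libraries (red) and 6 MKO libraries (blue). Points are libraries, and bars are the mean with the SD. Mrtfa, Mrtfb, Srf, Acta2, Myl9, Actg1 and Cnn2 show no overlap and are lower in TKO, whereas Myocd is higher in TKO with TKO 6 inside the MKO range.

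The contractile apparatus changed gene by gene rather than as a block. Of 50 tested sarcomere genes 10 were higher and 3 lower, and 37 were not called, beside 6.48% higher and 6.86% lower over all genes, with a median log2 ratio of 0.17. Without Ctrl 3 and DKO 1 15 were higher and 6 lower. Cardiac actin, Actc1, the main thin filament actin of the heart, stood at 10221, 13590, 15090, 6965, 9358 and 9598 CPM in TKO, against 25285, 22318, 24902, 24040, 23627 and 23983 CPM in MKO. MKO libraries were close together and all above the TKO libraries, which spread about 2-fold, and Actc1 fell by 1.15 ± 0.19 (adjusted p = 0.00022). Tropomyosin 1 (Tpm1), which lies along the thin filament, fell by 0.51 ± 0.12, and the titin-associated ubiquitin ligase Trim55 by 0.40 ± 0.09 (adjusted p = 0.00743 and 0.0039). Xirp2, an actin-binding protein of the intercalated disc and Z-disc, stood at 117, 225, 261, 165, 141 and 141 CPM in TKO, against 88.4, 81.5, 74.9, 84.7, 73.2 and 81.8 CPM in MKO. It rose by 1.11 ± 0.17 (adjusted p = 6.29e-05). The actin nucleator Lmod2 rose by 0.59 ± 0.11 and the cardiac myosin light chain kinase Mylk3 by 0.48 ± 0.10 (adjusted p = 0.000918 and 0.00152). The slow myosin heavy chain Myh7, the main form of the fetal mouse ventricle, ranged from 227 to 2059 CPM in TKO and from 167 to 296 CPM in MKO, which overlapped, and its log2 ratio was 1.59 ± 0.37 (adjusted p = 0.00564). Myh6 had a log2 ratio of -0.31 ± 0.18 and cardiac troponin T (Tnnt2) of 0.11 ± 0.10, and neither was called (adjusted p = 0.271 and 0.533).

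Of 45 genes of the costamere, adhesion sites and intercalated disc, which tie the sarcomere to the membrane and to neighbouring cells, 8 were higher and 2 lower, beside 6.48% and 6.86% over all genes. Sorbs2, an adaptor of Z-disc and adhesion sites, averaged 1023 CPM in TKO and 556 CPM in MKO, with no overlap, and rose by 0.88 ± 0.14 (adjusted p = 8.73e-05). Nrap, which joins actin filaments to the cell ends, rose by 0.57 ± 0.11, the intermediate filament protein synemin (Synm) by 1.38 ± 0.25 and ankyrin G (Ank3), which anchors sodium channels, by 0.63 ± 0.12 (adjusted p from 0.00051 to 0.00122). The falls were Pdlim3 and focal adhesion kinase, Ptk2, which lies 7.59 Mb from Mkl1.

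Genes of the fetal heart and of wall stress rose most often among the lists examined, which were chosen with earlier results of these data known. As many as 31 members of this list also stand in other lists, so its rises are not separate evidence. Those of Fhl1, Cd44, Tgfb2 and Rcan1, for example, are counted there too. Of 36 tested members 15 were higher (background 6.48%) and 3 lower, with a median log2 ratio of 0.74. Atrial natriuretic peptide, Nppa, stood at 329, 1375, 2540, 3924, 109 and 484 CPM in TKO, against 109, 90.4, 198, 92.7, 109 and 118 CPM in MKO. TKO libraries spread over more than an order of magnitude, TKO 5 lay among the MKO libraries, and the log2 ratio was 3.61 ± 0.80 (adjusted p = 0.0039). Rcan1, a calcineurin inhibitor that calcineurin itself induces, stood at 435, 401, 594, 366, 336 and 551 CPM in TKO, against 204, 213, 238, 187, 205 and 203 CPM in MKO. Each TKO library of Rcan1 exceeded each MKO library, and it rose by 1.10 ± 0.13 (adjusted p = 2.09e-06). Casq1, the skeletal muscle calsequestrin, ranged from 32.0 to 211 CPM in TKO and from 18.1 to 29.3 CPM in MKO and rose by 2.18 ± 0.41 (adjusted p = 0.000826). Endothelin 3 (Edn3) was nearly silent in MKO, at 0 to 0.262 CPM, and stood at 0.946 to 13.9 CPM in TKO (fitted log2 ratio 5.77 ± 0.74, adjusted p = 7.78e-06). The T-type calcium channel Cacna1g, active in the fetal ventricle, rose by 0.88 ± 0.12 (adjusted p = 1.33e-05). The members Nppb and Acta1, at log2 ratios of 1.28 ± 0.45 and 1.03 ± 0.47, were not called (adjusted p = 0.0611 and 0.15). The 3 falls of this list were Acta2, the brain-type creatine kinase Ckb (-0.97 ± 0.17) and Dstn, of which Acta2 and Dstn also belong to the cytoskeletal list.

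Receptors and secreted signals of injured tissue rose in 10 of 30 tested genes and fell in 3, beside 6.48% and 6.86% over all genes. Cd44, the hyaluronan receptor, stood at 119, 78.6, 90.3, 168, 108 and 140 CPM in TKO, against 35.3, 28.8, 36.5, 33.1, 31.9 and 31.9 CPM in MKO. The groups were well separated, and Cd44 rose by 1.83 ± 0.16 (adjusted p = 6.02e-08). Transforming growth factor beta 2, Tgfb2, stood at 28.9, 42.0, 49.0, 49.9, 30.8 and 32.0 CPM in TKO, against 13.5, 12.7, 12.7, 14.8, 11.6 and 11.4 CPM in MKO, and rose by 1.60 ± 0.15 (adjusted p = 8.7e-08). Ceruloplasmin (Cp), a copper-carrying ferroxidase, rose by 1.95 ± 0.22, the secreted chaperone clusterin (Clu) by 1.90 ± 0.29 and the receptor Tnfrsf12a by 1.49 ± 0.21 (adjusted p from 1.91e-06 to 8.56e-05). Lrp8, a receptor for reelin, ranged from 2.44 to 35.0 CPM in TKO and from 0.645 to 1.40 CPM in MKO (log2 ratio 4.13 ± 0.55, adjusted p = 1.33e-05). The receptor of leukaemia inhibitory factor, Lifr, fell by 0.58 ± 0.09 (adjusted p = 0.000104).

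The rise with the smallest adjusted p lay in a signalling gene. Gnao1, a G protein alpha subunit best known from neurons, stood at 56.9, 51.5, 55.8, 72.8, 38.3 and 40.3 CPM in TKO, against 6.91, 7.23, 8.22, 6.59, 9.12 and 7.26 CPM in MKO. The TKO libraries exceeded the MKO libraries by a wide margin, with a log2 ratio of 2.80 ± 0.17 (adjusted p = 7.68e-11). Of 36 adrenergic and G protein signalling genes 6 were higher and 8 lower, beside 6.48% and 6.86% over all genes. Adcy5, a major cardiac adenylyl cyclase, stood at 39.1, 55.8, 37.5, 48.8, 39.3 and 62.9 CPM in TKO, against 102, 115, 102, 126, 122 and 107 CPM in MKO. The groups did not overlap, and Adcy5 fell by 1.25 ± 0.14 (adjusted p = 1.19e-06). Grk5, a kinase that desensitizes beta-adrenergic receptors, averaged 25.6 ± 3.01 CPM in TKO and 9.53 ± 1.95 CPM in MKO (SD, n = 6 each) and rose by 1.43 ± 0.16 (adjusted p = 1.31e-06).

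Etv5, an ETS factor of the PEA3 group that is induced by growth factor signalling, stood at 80.8, 90.4, 92.2, 165, 96.2 and 115 CPM in TKO, against 23.7, 18.7, 24.8, 19.2, 30.0 and 18.1 CPM in MKO. Every TKO library of Etv5 exceeded every MKO library, and the log2 ratio was 2.25 ± 0.16 (adjusted p = 1.34e-09). Etv5 lies 8.96 Mb from Mkl2 on chromosome 16. Spry4, which dampens receptor tyrosine kinase signals, rose by 1.06 ± 0.24 (adjusted p = 0.00489), and 4 of 17 genes of the PEA3 and ERK feedback list were higher and 1 lower (6.48% and 6.86% over all genes). The fall was that of the ephrin receptor Epha4 (-1.01 ± 0.21, adjusted p = 0.00244). Dusp4, a phosphatase of MAP kinases, had a log2 ratio of 2.93 ± 0.77 (adjusted p = 0.0136), but stood at 16.8 CPM in TKO 4 and at 0.436 to 2.44 CPM in the other 5 TKO libraries, against 0.254 to 0.904 CPM in MKO. Without TKO 4 the adjusted p of Dusp4 was 0.0991.

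**Figure D2:**
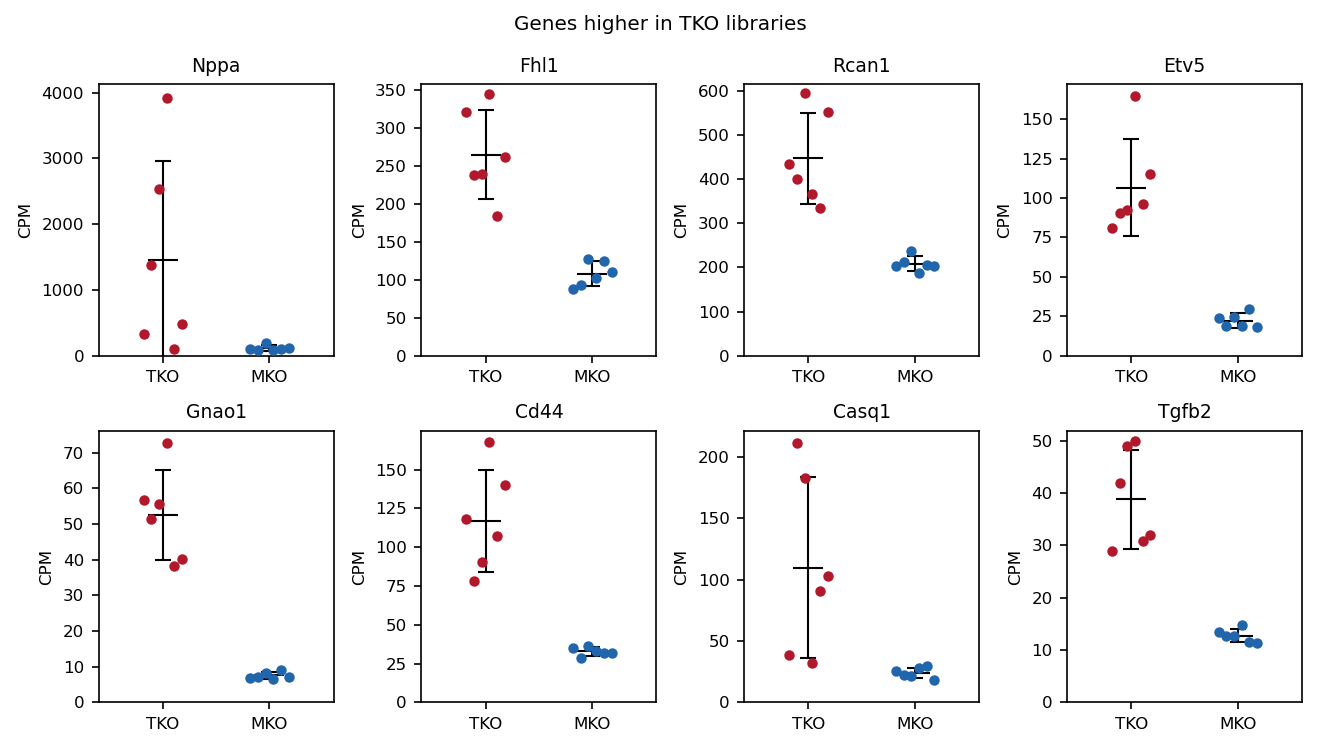
Level in CPM (vertical axes, each starting at 0) of 8 genes that were higher in TKO, in the 6 TKO libraries (red) and the 6 MKO libraries (blue). Points are libraries, and bars are the mean with the SD, which reaches below 0 for Nppa. MKO libraries lie close together in all 8 panels, while TKO libraries spread widely in Nppa (109 to 3924 CPM) and Casq1 (32.0 to 211 CPM).

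Ion channel genes were mostly lower where they were called, 7 of 39 against 1 higher (6.86% and 6.48% over all genes), and 10 against 3 without Ctrl 3 and DKO 1. Kcnip2, a subunit that brings the transient outward potassium channel to the surface, stood at 16.4, 39.0, 46.6, 33.4, 22.2 and 26.5 CPM in TKO, against 66.8, 63.8, 85.1, 71.4, 65.7 and 69.2 CPM in MKO. It fell by 1.19 ± 0.17 with no overlap (adjusted p = 2.74e-05). Kcnd2, a pore subunit of that channel, fell by 1.10 ± 0.24 (adjusted p = 0.00383). Kcne1, a beta subunit of the slow delayed rectifier, averaged 178 ± 52.2 CPM in TKO and 375 ± 33.5 CPM in MKO and fell by 1.07 ± 0.14 (adjusted p = 1.03e-05). The pacemaker channel Hcn2 averaged 36.5 ± 8.72 CPM in TKO and 73.2 ± 8.29 CPM in MKO and fell by 1.0 ± 0.15 (adjusted p = 4.63e-05). Kcnj8 and Abcc9, subunits of the ATP-sensitive potassium channel of pericytes and also on the smooth muscle and pericyte list, fell too. The single rise was also the largest of the genes with at least 10 CPM: Kcne1l, now named Kcne5, an inhibitory beta subunit, stood at 2.52, 32.1, 23.8, 27.0, 16.4 and 12 CPM in TKO, against 0.301 to 0.761 CPM in MKO. Its log2 ratio was 5.08 ± 0.48 (adjusted p = 1.28e-07), with TKO 1 far below the other TKO libraries.

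Calcium handling genes were higher in 5 of 37 and lower in 1, beside 6.48% and 6.86% over all genes. This balance did not hold elsewhere. Without Ctrl 3 and DKO 1 6 were higher and 8 lower, in a fit that called 1487 genes higher and 1405 lower. With the other-cell marker score described further on 4 were higher and 4 lower. Camk2b, a kinase activated by calcium and calmodulin, averaged 34.1 ± 2.95 CPM in TKO and 19.3 ± 2.50 CPM in MKO and rose by 0.82 ± 0.13 (adjusted p = 0.000136). The calcium pump of the sarcoplasmic reticulum, Atp2a2, was the gene that fell, by 0.55 ± 0.16 (adjusted p = 0.0214), and TKO 6 at 21337 CPM overlapped MKO 2 at 21024 CPM. The call of Atp2a2 was lost without TKO 1, TKO 3, MKO 3, MKO 4 or MKO 5, with adjusted p up to 0.0586. It was also lost with no filter on low counts and with the marker score in the fit.

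Genes of the tricarboxylic acid cycle were lower by small steps. Of 24 genes 9 were lower and 0 higher, beside 6.86% and 6.48% over all genes, with a median log2 ratio of -0.29, and 16 were lower without Ctrl 3 and DKO 1. Sdha, the catalytic subunit of succinate dehydrogenase, stood at 2036, 2266, 2396, 2214, 2545 and 2428 CPM in TKO, against 2980, 2884, 3671, 3448, 3235 and 3009 CPM in MKO. It fell by 0.47 ± 0.10 with no overlap (adjusted p = 0.00222), and citrate synthase (Cs) fell by 0.40 ± 0.10 and dihydrolipoamide dehydrogenase (Dld) by 0.40 ± 0.08 (adjusted p = 0.012 and 0.00106). Of 43 genes of fatty acid uptake and oxidation 6 were lower and 0 higher (10 and 2 without Ctrl 3 and DKO 1), among them Hadha of the mitochondrial trifunctional protein (-0.38 ± 0.09, adjusted p = 0.00958). Oxidative phosphorylation held 4 lower and 1 higher among 78 genes, shares below those over all genes, and 17 lower and 4 higher without Ctrl 3 and DKO 1. Muscle creatine kinase, Ckm, which buffers ATP, stood at 1001, 1785, 1997, 893, 738 and 1020 CPM in TKO, against 3057, 3137, 3685, 3061, 3302 and 2797 CPM in MKO. No TKO library of Ckm reached an MKO library, and it fell by 1.36 ± 0.20 (adjusted p = 5.73e-05). The insulin-regulated glucose transporter Slc2a4 fell by 0.62 ± 0.14, while the platelet-type phosphofructokinase Pfkp, of the fetal heart, rose by 0.50 ± 0.09 (adjusted p = 0.00402 and 0.000919).

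Of 29 lysosome and autophagy genes 7 were higher and 0 lower, beside 6.48% and 6.86% over all genes, among them Gabarapl1, an autophagosome protein (0.58 ± 0.09, adjusted p = 9.33e-05), and the muscle ubiquitin ligase Fbxo32 (1.05 ± 0.17, adjusted p = 0.000161). Genes against oxidative stress were higher in 4 of 27, among them the plasma glutathione peroxidase Gpx3, which ranged from 104 to 819 CPM in TKO and from 61.4 to 98.1 CPM in MKO (2.03 ± 0.35, adjusted p = 0.000316). The p53 response held 5 higher and 1 lower of 27, and 2 higher and 0 lower with the marker score described next. The integrated stress response held 2 of each among 27. Of 34 proteasome genes 0 were called by edgeR and by DESeq2, 7 by voom and 6 at an unadjusted p under 0.05, and without Ctrl 3 and DKO 1 9 were higher and 1 lower. Of 34 interferon response genes 0 were called by edgeR and by DESeq2, 5 by voom and 7 at an unadjusted p under 0.05. Cardiac transcription factors had 3 lower and 0 higher of 33, and these 3, Nr2f2, Rxra and Hey2, were not called with the marker score in the fit. Ribosomal protein genes had 1 higher and 1 lower of 63, and 12 and 1 without Ctrl 3 and DKO 1. Cell cycle genes had 1 higher and 2 lower of 35, heat shock genes 2 and 0 of 20, immediate early genes 3 and 1 of 21, glycolysis genes 2 and 1 of 30 and calcineurin signalling genes 2 and 1 of 16.

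Many markers of fibroblasts, endothelium and smooth muscle were lower in TKO than in MKO, with median log2 ratios of -0.92, -1.01 and -1.18 for the 3 lists. Between DKO and Ctrl, which also differ in Mrtf genotype, these medians were 0.27, 0.12 and 0.2. The reason for the opposite directions was not tested. Markers of leukocytes, Schwann cells, the epicardium and red cells were not called lower, but only 11, 4, 11 and 2 were tested. The median log2 ratio was also negative for leukocyte (-0.39) and epicardial (-0.43) markers, so a difference between cell classes cannot be read from this. Of 92 markers of fibroblasts, endothelium, smooth muscle and pericytes, and leukocytes found in the count table, 0 were at a count of 0 in all 12 libraries. Over all genes 6.86% were lower and 6.48% higher. Fibroblast markers summed to 516.9 to 824.3 CPM in TKO and 625.6 to 1463 CPM in MKO, and 6 of 20 tested were lower and 1 higher. Endothelial markers summed to 1830 to 3149 CPM in TKO and 2357 to 3416 CPM in MKO, with 6 of 24 lower, and the sums were mostly Cd36, which heart muscle also expresses and which was not called. Smooth muscle and pericyte markers summed to 2953 to 4203 CPM in TKO and 3884 to 4799 CPM in MKO, mostly desmin (Des), also a muscle protein, with 9 of 17 lower and 1 higher. Of this list 9 members also stand in other lists. The falls of Acta2, Myl9, Kcnj8 and Abcc9, given above, are therefore counted here again. Leukocyte markers summed to 17.73 to 26.61 CPM in TKO and 15.3 to 50.12 CPM in MKO, and 0 of 11 were called by edgeR, 1 by DESeq2 and 0 at an unadjusted p under 0.05. Without Ctrl 3 and DKO 1 11 fibroblast, 13 endothelial and 10 smooth muscle and pericyte markers were lower, beside 1405 genes in all. In that fit 1 leukocyte and 1 epicardial marker were lower too. Schwann cell markers summed to 77.88 to 120.5 CPM in TKO and 89.23 to 100.3 CPM in MKO, epicardial markers to 15.94 to 36.88 CPM in TKO and 15.39 to 56.65 CPM in MKO, adipocyte markers to 33.34 to 176.5 CPM in TKO and 110.8 to 281.4 CPM in MKO, and erythroid markers to 15.4 to 18.67 CPM in TKO and 11.85 to 17.85 CPM in MKO. Of these 4 lists, with 4, 11, 2 and 2 genes tested, 1 gene was called, the keratin Krt8, which was higher. Ventricular muscle markers summed to 124600 to 156500 CPM in TKO and 141500 to 175100 CPM in MKO. Pecam1, an endothelial adhesion protein, stood at 49.2, 56.8, 30.8, 66.5, 39.8 and 18.3 CPM in TKO, against 78.6, 166, 98.5, 114, 85.5 and 152 CPM in MKO, and fell by 1.41 ± 0.41 (adjusted p = 0.0247). The vascular endothelial growth factor receptor Kdr fell by 1.55 ± 0.48, the intermediate filament vimentin (Vim) by 1.28 ± 0.37 and the pericyte protein Vtn by 1.64 ± 0.39 (adjusted p from 0.00643 to 0.0329). Cspg4, of the same list as Vtn, was higher instead. It was still called with the marker score in the fit, whereas Vtn was not. In bulk libraries, fewer cells of a type and less RNA per cell cannot be told apart.

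**Figure D3:**
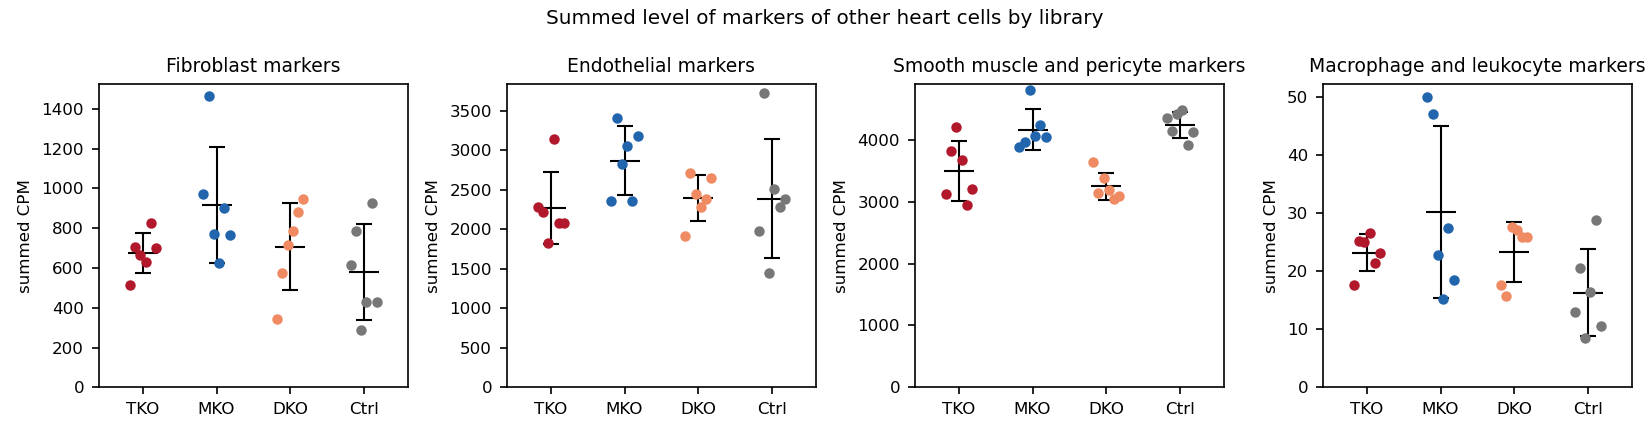
Summed level in CPM (vertical axes, each starting at 0) of the markers of 4 other cell classes in each library of TKO, MKO, DKO and Ctrl. Points are libraries, and bars are the mean with the SD. TKO and MKO overlap in every panel, and the MKO mean is above the TKO mean in each.

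To set cardiomyocyte genes apart from such markers, a score was formed in each library as the mean log2 CPM of 62 tested markers of these classes that are in no cardiomyocyte list. The score was 2.81, 3.16, 2.74, 3.41, 2.80 and 2.28 in TKO 1 to 6, against 3.65, 4.30, 3.56, 3.39, 3.48 and 3.60 in MKO 1 to 6. TKO 4 reached the lowest MKO library, and the other 5 TKO libraries lay below it. The median score was 2.81 in TKO and 2.76 in Ctrl, against 3.58 in MKO and 3.37 in DKO, so it did not follow the Mrtf genotype across the 4 groups. Of the 62 markers 54 had a negative log2 ratio, with a median of -0.94 over the 62. Among them 15 were called lower and 2 higher, beside 6.86% and 6.48% over all genes. Each gene was then followed in the 12 DKO and Ctrl libraries by its correlation with the score within those groups. In the fit without the score these libraries enter the ratio of TKO to MKO only through the shared estimate of the spread. A correlation of at least 0.6 was found for 14.4% of all tested genes, for 5.03% of the 796 genes higher in TKO and for 43.9% of the 843 genes lower in TKO. Without Ctrl 3 and DKO 1 these shares were 12.5%, 4.77% and 36.8%. Among the falls of at least 2-fold, 295 had such a correlation and 96 did not.

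With the score as a term in the fit, 707 genes were higher in TKO and 646 lower. Of the 796 rises 509 (63.9%) were still called, and their median log2 ratio was 0.64 with the score in the fit and 0.65 without it for all 796. Of the 843 falls 352 (41.8%) were still called, with a median of -0.52 for all 843 with the score in the fit and -0.92 without it. Among the falls that followed the score in DKO and Ctrl libraries 24 of 370 were still called, and among the other falls 328 of 473. The fit with the score takes its slope from all libraries, DKO and Ctrl included. This split was therefore largely set in advance and is a description. Myl9 stood at -3.24, Acta2 at -2.35, Srf at -1.24, Actc1 at -1.45 and Ckm at -1.56 on the log2 scale with the score in the fit, all still called and at least as low as without it. Cnn2 at -1.44 and Actg1 at -1.80 were also called, but closer to 0 than without the score, and the correlation of Cnn2 with the score was 0.70. Actg1 was not called in the 12 libraries of TKO and MKO alone with the score (adjusted p = 0.126). Acta2 and Myl9 are also smooth muscle markers, and their correlation with the score in DKO and Ctrl libraries was -0.21 for each. Gnao1 stood at 2.79, Etv5 at 2.23, Cd44 at 1.74, Tgfb2 at 1.65 and Nppa at 3.27, and these rises were still called.

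Many members of the matrix, fibroblast and vessel lists were called without the score and not with it. Of 51 matrix genes 13 were lower and 5 higher, beside 6.86% and 6.48% over all genes. With the score in the fit 1 was lower and 5 higher, with a median log2 ratio of 0.060 instead of -0.62. Fibronectin (Fn1) stood at -1.67 without the score and at -0.40 with it (adjusted p = 0.454), and the basement membrane collagen Col18a1 at -1.63 and -0.45 (adjusted p = 0.401). Timp2, an inhibitor of matrix metalloproteinases, was the matrix gene that stayed lower: it averaged 64.4 ± 9.93 CPM in TKO and 164 ± 12.9 CPM in MKO, at -1.35 ± 0.13 without the score (adjusted p = 1.28e-07) and -1.17 with it. The endothelial list had a median of -1.01 without the score and -0.13 with it, and Pecam1, Kdr, Cdh5 and Tek were not called with it. The apelin receptor Aplnr, the paternally expressed gene Mest, the cadherin Pcdh17 and the lipid receptor S1pr3, among the 15 largest falls outside the marker lists, were not called with the score either (adjusted p from 0.145 to 0.183). Within the cytoskeletal list the filamin Flna, calponin 3 (Cnn3), Csrp1, Mical2 and Fermt2 were not called with the score, and Flna stood at -0.45 (adjusted p = 0.362). The list then had 11 lower and 4 higher members, and its median was -0.0042 instead of -0.34. Kcnj8, Abcc9 and the G protein regulators Rgs4 and Rgs5 were not called either. Since the list markers form the score, their own change under it is not independent of it.

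With the score in the fit 646 of all 12281 tested genes were lower and 707 higher. In the tricarboxylic acid cycle 19 of 24 genes were lower in that fit, with a median of -0.48, and in oxidative phosphorylation 18 of 78, with a median of -0.34. DKO 1, with a low score, had summed levels of 126000 CPM for oxidative phosphorylation and 47130 CPM for the tricarboxylic acid cycle, the highest of DKO. Without Ctrl 3 and DKO 1 the tricarboxylic acid cycle had 20 lower genes with the score (median -0.42) and 16 without it (median -0.28). Oxidative phosphorylation had 16 lower genes with the score (median -0.15) and 17 without it (median -0.11), so its larger number of falls with the score was not seen without these libraries. Citrate synthase (Cs) stood at -0.57 (adjusted p = 0.000853) and Sdha at -0.59 (adjusted p = 0.000766). Sarcomere genes then numbered 6 higher and 5 lower, and Tcap and Csrp3, both of the Z-disc and higher without the score at 0.68 and 0.52, were not called with it (adjusted p = 0.32 and 0.334). The fetal and stress list held 14 higher and 3 lower genes with the score.

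**Figure D4:**
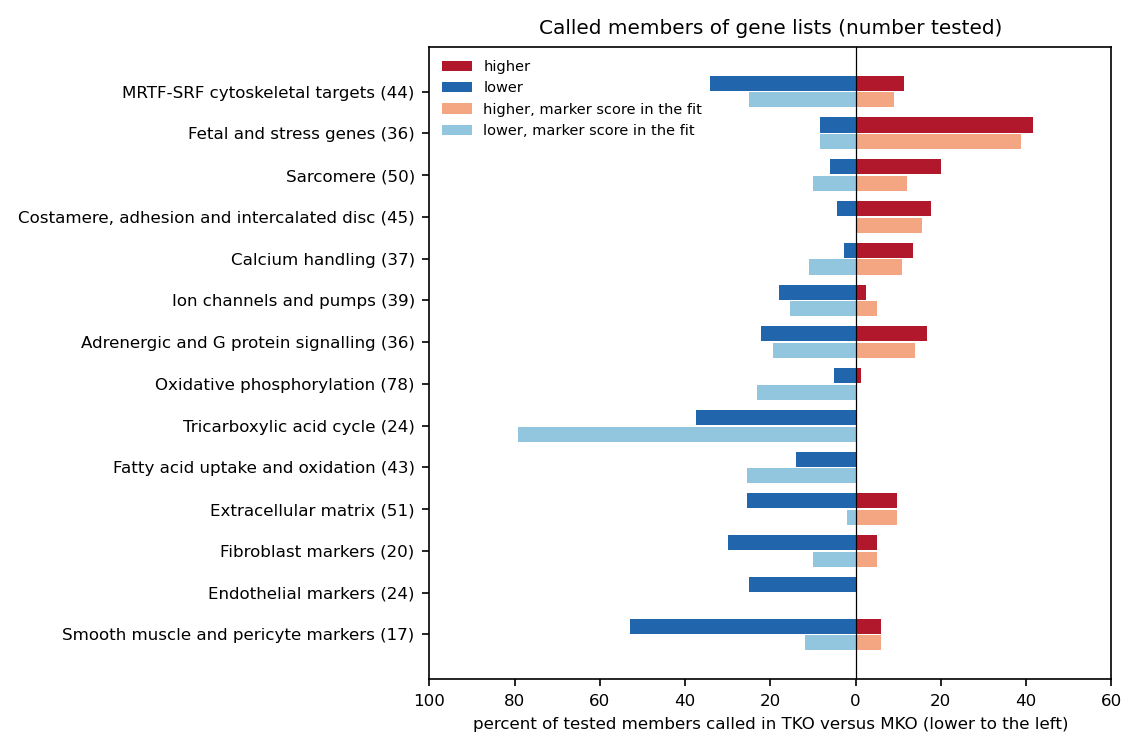
Percent of tested members of 14 gene lists that were called higher (to the right) or lower (to the left) in TKO than in MKO, with the number tested in brackets. Dark bars are the fit without the other-cell marker score and pale bars the fit with it. The lower bars of the matrix, fibroblast, endothelial and smooth muscle lists shrink with the score, whereas that of the tricarboxylic acid cycle lengthens to 19 of 24.

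**Figure D5:**
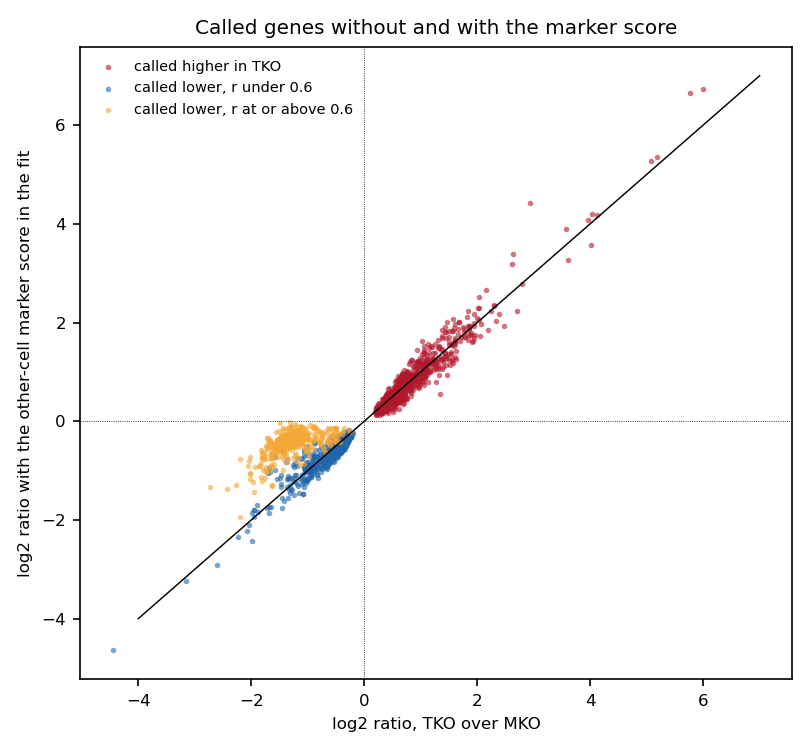
Log2 ratio of TKO to MKO of each called gene without the marker score (horizontal) and with it (vertical), with the line of equality. Red points are genes higher in TKO, and genes lower in TKO are yellow where their correlation with the score in DKO and Ctrl libraries was at least 0.6 and blue otherwise. Most yellow points lie between the line and 0, and red points follow the line. The slope on the score is drawn partly from DKO and Ctrl libraries, so the shift of yellow points was largely set in advance.

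Some of the strongest changes lay near the mutated genes. Within 10 Mb of Mkl1 or Mkl2 75 of 385 tested genes were called, 19.5% beside 13.3% over all genes, with 19.3% around Mkl1 and 19.8% around Mkl2. The ribosomal protein gene Rpl3, 0.929 Mb from Mkl1, averaged 1.58 ± 0.241 CPM in TKO and 6.65 ± 1.47 CPM in MKO and fell by 2.07 ± 0.24, while 61 of 63 tested ribosomal protein genes were not called in the same fit. Snn, 2.18 Mb from Mkl2, fell by 1.94 ± 0.14, and the Nogo receptor Rtn4r, 4.71 Mb from Mkl2, by 2.61 ± 0.37. The matrix protein gene Fbln1, 4.02 Mb from Mkl1, rose by 1.55 ± 0.23, against the direction of the other fibroblast markers called. Alleles that travel with the mutated genes and the loss of the coactivators cannot be told apart for these genes. Without the genes within 10 Mb of Mkl1 or Mkl2 1560 genes were called.

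The effect of the Mrtf genotype under the Myocd guide virus was set against its effect under the Cre virus, as the log2 ratio of TKO to MKO minus that of DKO to Ctrl. Of 12281 genes 57 differed (0.464%), 49 with a positive and 8 with a negative difference, and 56 of them were also called between TKO and MKO. Gnao1 was 2.80 higher in TKO than in MKO and 1.24 higher in DKO than in Ctrl on the log2 scale, a difference of 1.56 (adjusted p = 0.00161). Etv5 stood at 2.25 and 0.82, a difference of 1.42 (adjusted p = 0.00171), Rcan1 at 1.10 and -0.06, a difference of 1.16 (adjusted p = 0.00171), and Tgfb2 at 1.60 and 0.36, a difference of 1.24 (adjusted p = 0.00392). Fhl1 stood at 1.29 and 0.19, a difference of 1.10 (adjusted p = 0.0134). These 5 differences were also called without Ctrl 3 and DKO 1, with adjusted p from 0.00253 to 0.0141. The fall of Acta2 was of like size in both settings, -2.24 and -2.17, and the difference of -0.07 was not called (adjusted p = 0.959). Srf stood at -1.03 and -0.33 and Myl9 at -3.16 and -1.77, and neither difference was called (adjusted p = 0.13 and 0.188). The number of called differences depended on single libraries, from 14 without DKO 2 to 585 without Ctrl 2, and 130 without both Ctrl 3 and DKO 1.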

How the data were processed

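Polyadenylated RNA of sorted cardiomyocytes was amplified with SMART-Seq v4 and made into Nextera XT libraries, per the labels' protocols. These kits do not mark strand, so reads of overlapping antisense genes cannot be told apart. The authors deposited whole-number read counts per gene for 24 libraries. Per the submitters' processing notes, STAR, featureCounts and DESeq2 were used with mm10, without versions. The authors also deposited a table of this comparison with log2 fold changes, p-values and adjusted p-values, per the file headers; its sign runs TKO over MKO.

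Counts of all 24 libraries were tested in a single fit with edgeR 4.0.16 (R 4.3.3), quasi-likelihood, TMM scaling and filterByExpr at a minimum count of 10, which kept 12281 of 23337 genes. Every adjusted p is the Benjamini-Hochberg value over these genes, two-sided, with a threshold of 0.05. The marker score used a prior count of 2. The tests were tried on simulated data. Over the 30 pairs of libraries within TKO and MKO the chi-square per gene was 7.58 to 41.7, above sampling noise for each pair, and all were counted as separate samples.

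Named genes are Mkl1, Mkl2, Myocd and Srf, the 15 largest rises and falls among called genes that reach a mean of 10 CPM in either group and have 5 of 6 libraries of each group beyond the other mean, without marker genes, sex-linked switches, pseudogenes and clone names, and up to 4 called genes of each list by adjusted p. Not all are printed, and a few are not reported here. List members beyond this rule, such as Edn3, Ankrd1, Myh7, Actb and Clu, were chosen after their values were seen, as was the correlation limit of 0.6. The comparison and the lists were chosen with earlier results of these data known. DESeq2 1.42.0 and limma 3.58.1 (voom) served as alternatives.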

Additional observations from a re-analysis of the deposited data

Results flagged for a closer look

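In 15 of 242 groups of 6 libraries from 121 of the 123 named genes (6.2%) 1 library stood far from the nearest of the others, where chance gives about 1 in 20. TKO 4 had 4 of these: Gpx3 at 819 CPM, Dusp4 at 16.8 CPM, Myoz2 at 1525 CPM and Pfkp at 409 CPM, each the highest of TKO. Of these 4 genes Dusp4 was not called without TKO 4. TKO 1 was highest for Kcne1 at 275 CPM and for Jund at 222 CPM, and Jund was not called without it (adjusted p = 0.0531). TKO 3 was highest for the stress cytokine Gdf15 at 11.1 CPM and lowest for the endothelial factor Klf2 at 20.3 CPM, and neither was called without it. Jund and Klf2 lie on chromosome 8 between 70 and 75 Mb, where 21 of 83 tested genes (25.3%) were called, beside 13.3% over all genes. In the adjoining window from 65 to 70 Mb 7 of 22 (31.8%) were called. Other windows of that length with at least 20 tested genes reached 39.1%, in a window of 23 genes on chromosome 17. TKO 5 was highest for Vtn at 7.84 CPM. MKO 3 also had 4: it was highest for Nppa at 198 CPM, for Kcnip2 at 85.1 CPM and for Cdkn1a at 106 CPM, and lowest for Fbn2 at 13.8 CPM. MKO 5 was highest for Xpc at 34.6 CPM and MKO 2 for Arc at 1.21 CPM.

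For 10 named genes the log2 ratio of TKO to MKO differed from that of DKO to Ctrl by a test of the difference in the same edgeR fit. The difference was 1.56 for Gnao1, 1.42 for Etv5, 1.16 for Rcan1, 1.24 for Tgfb2 and 1.10 for Fhl1, as given above. It was 1.87 for the incretin receptor Gipr (adjusted p = 0.031), 3.55 for the keratin Krt80 (adjusted p = 0.031), 0.86 for Sorbs2 (adjusted p = 0.0418), 0.74 for Cacna1g (adjusted p = 0.042) and 0.56 for Gabarapl1 (adjusted p = 0.0463). Leaving out each of the 24 libraries in turn kept the call 24 times for Gnao1, Etv5, Rcan1, Tgfb2 and Fhl1, 20 times for Gipr, 19 for Krt80, 12 for Sorbs2 and 8 for Cacna1g and for Gabarapl1. With the marker score in the fit Gnao1, Etv5, Tgfb2 (adjusted p = 0.0215 for each) and Rcan1 (0.0454) were called and the other 6 were not.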

How the results depend on the processing

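The 1639 called genes numbered 3202 with voom and quality weights (1505 higher and 1697 lower), 2581 with only the 12 libraries of TKO and MKO (1404 lower), 2892 without Ctrl 3 and DKO 1 (1487 higher and 1405 lower) and 893 with those 12 libraries and the marker score, an alternative chosen after seeing the data (350 lower). With the score but without Ctrl 3 and DKO 1, also chosen after seeing the data, it was 2010. RLE size factors, no filter on low counts, a minimum count of 50, DESeq2, a sex term, the marker score and the removal of genes near the mutated loci gave 1353 to 2082. Leaving out each library gave 1184 (without MKO 6) to 2725 (without DKO 1) genes, 632 to 1406 higher and 552 to 1319 lower. The 57 called differences numbered 187 with DESeq2, 762 with voom, 130 without Ctrl 3 and DKO 1, 99 with a sex term and 175 with the replicate block, and 14 to 585 without each library. The replicate block gave 1834 genes between TKO and MKO, but same-numbered libraries did not deviate together (correlations of -0.0843 to 0.284), so the numbers are not read as pairs. None of the 123 named genes changed direction in any of these. The call was lost for 36 with the marker score, 48 with the 12 libraries and the score, 24 with the score without Ctrl 3 and DKO 1, 9 without a filter, 3 with a sex term 2 each with RLE factors and the block, 1 each with a minimum count of 50, voom and only the 12 libraries, and 0 with DESeq2 and without Ctrl 3 and DKO 1. Pam, Slc7a1, Myc and Hey2 lost it without any of 11 to 16 single libraries. The cause of these shifts was not tested. Genes under a few CPM rest on few reads, which limits their folds.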

Other observations

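Beyond the gene lists, Gipr, the receptor of glucose-dependent insulinotropic polypeptide, stood at 10.2, 17.7, 10.1, 19.2, 13.8 and 10.1 CPM in TKO, against 4.02, 3.31, 2.9, 1.78, 2.75 and 1.58 CPM in MKO. The groups did not overlap, and Gipr rose by 2.3 ± 0.26 on the log2 scale (edgeR, adjusted p = 1.88e-06). The keratin Krt80 rose by 4.03 ± 0.48 and the microfibril protein Fbn2, mostly of fetal tissue, by 2.02 ± 0.28.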
